A study of Mus musculus with 15 samples.

Results

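The transcripts described here are those of the mouse liver during the first week of suckling. The 4 libraries are D1, D3, D5 and W1 of C57BL/6 mice, from postnatal days 1, 3 and 5 and from postnatal week 1, entered as day 7. Each was made from total RNA of whole liver, and the animals carried no stated allele or treatment. For each gene the slope of log2(FPKM + 1) on postnatal day was fitted, where FPKM is fragments mapped to a gene, scaled to its transcript length and to all mapped fragments of the library and a slope of 1 is a 2-fold change per day. A gene entered when it reached 10 FPKM in any of the 4 libraries and all 4 values were marked as estimated, which left 6248 of the 44482 gene entries on chromosomes. The genes just inside that limit were Arnt, Oxnad1, Mthfsd, Ehd4 and Lin7c, with highest values from 10.0036 to 10.0125 FPKM. Just outside were Selrc1, Rpl10-ps5, Klf9, Ino80c and Sptlc2, from 9.98085 to 9.99951 FPKM. Alb, Cpt1a and Dak had a failed estimate in at least 1 library of the week and were left out. The last fetal libraries, E15.5, E16.5, E17.5 and E18.5, and those of weeks 2, 3 and 8, W2, W3 and W8, of the same strain and tissue, are used for comparison. Each age was 1 library; the labels used here name neither the number of animals behind it nor their sex, litter or feeding state, so an age cannot be told apart from the animals taken at that age.

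The fetal liver is a blood-forming organ, in which hepatocytes share the tissue with erythroblasts, megakaryocytes, granulocytes and lymphoid precursors. Around birth blood formation moves to bone marrow and spleen, while the hepatocytes take over detoxification, urea and bile acid synthesis and the secretion of adult plasma proteins. Suckling replaces placental glucose by milk fat, and the liver of the newborn oxidises fatty acids and makes ketone bodies and glucose.

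The 4 libraries were alike in breadth, with 12451 to 12760 genes above 1 FPKM, and the authors' FPKM bounds spanned 9.56% to 10.01% on either side of genes at 10 to 12 FPKM. Xist was at or below 0.314 FPKM and Ddx3y at 7.85 to 10.7 FPKM in all 4. Summed FPKM of 7 hepatocyte markers went from 44760 at D1 to 52450 at W1, so the defining genes of the labelled tissue were abundant in all 4. The markers did not move together. Ttr, Trf, Apob, Serpina1a and Cps1 were higher at W1 than at D1. Apoa1 went from 27530 to 20660 FPKM and Hnf4a from 98 to 75.6 FPKM. Kupffer cell markers summed to 385 to 489 FPKM, sinusoidal endothelial markers to 135 to 165 FPKM, stellate cell markers to 106 to 126 FPKM and T and NK cell markers to 9.02 to 12.7 FPKM, none in 1 order. Cholangiocyte markers summed to 34.8, 60.5, 85.9 and 95.2 FPKM, higher at each age. Most of that was Spp1, a secreted phosphoprotein of duct cells and macrophages, which rose from 21.7 to 85.9 FPKM. The other duct markers stayed below 10 FPKM and were divided. The keratins Krt7 and Krt19 were lowest at W1, at 0.904 and 2.69 FPKM. Sox9 went from 1.23 to 2.50 FPKM and Epcam from 2.32 to 3.15 FPKM, each higher at every later age. The part of these cell types in the rising genes was not tested. Pancreas markers summed to 17.4 FPKM at D1 and to 6.48 to 7.21 FPKM afterwards, and skeletal muscle markers went from 7.89 to 3.47 FPKM, lower at each age. Globin transcripts made up 11.3%, 13.4%, 5.35% and 4.45% of all FPKM at D1, D3, D5 and W1, and transcripts of the mitochondrial genome 11.6%, 16.0%, 22.2% and 25.5%. FPKM is relative to the whole library, and the part of these shifts in the slopes was addressed only by the other scalings given below.

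Genes that fell over the week included 15 of 37 erythroid and 9 of 20 neutrophil genes. Genes that rose included 4 of 22 cytochrome P450, 7 of 23 conjugation, 6 of 36 amino acid and 4 of 21 bile acid genes. With limma's moderated test and Benjamini-Hochberg adjustment over all 6248 genes at 0.05, 195 genes rose (3.12%) and 298 fell (4.77%), in all 7.89% of those tested. The smallest adjusted p was 0.0129, and without adjustment 647 genes rose (10.4%) and 1241 fell (19.9%) at p under 0.05. At least a 2-fold rise from D1 to W1 with the authors' bounds apart was found for 309 genes (4.95%), of which 183 also passed the slope test. A fall of that size was found for 510 genes (8.16%), of which 255 passed. These p-values measure how closely 4 libraries follow a line, not the spread between animals. No gene passed in limma fits without D1 or without W1, 1 passed without D5, and 519 rising and 919 falling passed without D3, where limma's spread was pooled over all genes. At an unadjusted p under 0.05, limma gave 261 rising and 566 falling genes without D1, 508 and 929 without D5, and 581 and 821 without W1.

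The split of the calls depended on the scaling. As deposited, 39.6% of the called genes rose, but 62.5% after quantile normalization, 63.6% after median ratios and 63.3% after rescaling to totals without globins, Alb and mitochondrial genes. The median slope of all members was -0.03 per day, or -0.16 over the 6 days, and -0.01, 0.00 and 0.00 per day under those scalings, so changes below are read against it. All of the 493 called genes kept their sign under each scaling, but some named below lost their call. Hmgb2, Irf7, Pck2 and Rps3 passed under none of these 3 scalings. Alas2, Etnppl, Gata1, Id1, Igfbp1, Pf4, S100a8 and Ugp2 passed after median ratios only. Under quantile normalization alone the call was lost for Akr1d1, Apoc1, Asb17os, C9, Ghr, Gsta3, Gulo, Haao, Hamp2, Khk, Kynu, Myb, Sc5d, Ttr and Zeb2os. With totals without globins alone it was lost for Hba-a1 and Hbb-bs.

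**Figure D1:**
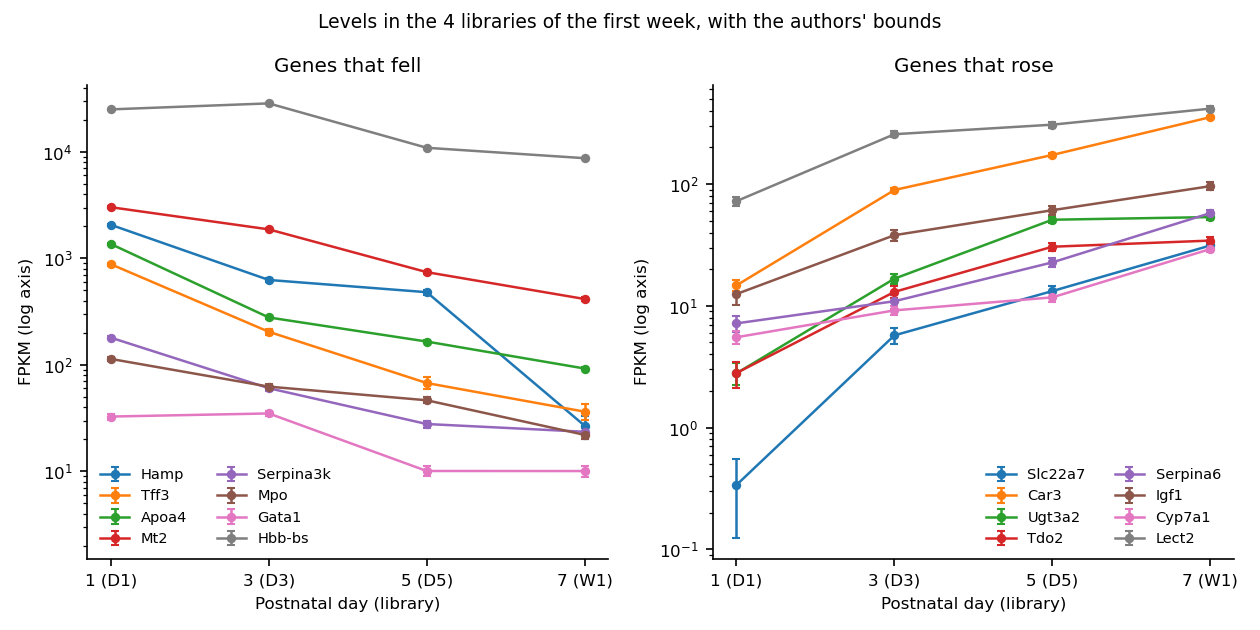
FPKM on a log axis against postnatal day for 8 genes that fell (left) and 8 that rose (right), 1 point per library with the authors' bounds as bars. Hamp ends at 26.8 FPKM from 2065 FPKM, Gata1 and Hbb-bs drop between D3 and D5, and Slc22a7 climbs from 0.338 to 31.3 FPKM.

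Red cell genes were lower by a step between D3 and D5 rather than evenly through the week. Of 37 members of the erythroid list, 15 fell and none rose, and the median slope was -0.27 per day against -0.03 for all members. From D1 to D3, 31 of the 37 were higher, against 44.4% of all members, with a median change of 0.28 on the log2 scale. From D3 to D5 all 37 were lower with bounds apart, by a median of -1.41. Counted without regard to bounds, 56.8% of all members were lower, and their median change was -0.06. In bulk tissue fewer red cell precursors and less RNA per cell cannot be told apart. The number that fell was 8 under quantile normalization, 12 under median ratios, 5 under totals without globins, 4 with log2 of the day and 1 among all genes at 1 FPKM.

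Gata1, the transcription factor that directs erythroid and megakaryocyte development, was at 32.7, 35.0, 10.1 and 10.1 FPKM at D1, D3, D5 and W1. D1 and D3 lay together above D5 and W1, and the slope was -0.33 ± 0.07 per day (SE; limma adjusted p = 0.0439). Epor, the erythropoietin receptor, was at 43.0, 35.6, 13.1 and 12.3 FPKM, with a slope of -0.33 ± 0.05 per day (limma adjusted p = 0.0265). The adult beta-globin gene Hbb-bs was at 25053, 28522, 10923 and 8720 FPKM, and the alpha-globin gene Hba-a1 at 38991, 45102, 16012 and 14244 FPKM. Both passed (limma adjusted p = 0.0393 and 0.045). How reads shared by Hbb-bs and Hbb-bt, or by Hba-a1 and Hba-a2, were assigned is not given in the sources used here. Alas2, the erythroid enzyme that starts heme synthesis, was at 234, 255, 98.4 and 84.9 FPKM and fell (limma adjusted p = 0.046). Car1, a carbonic anhydrase of red cells, was at 41.9, 21.8, 9.63 and 6.68 FPKM. It lay lower at each later age, with the steepest slope of the list, -0.43 ± 0.04 per day (limma adjusted p = 0.0129). Klf1, the erythroid factor that activates the beta-globin gene, was at 62.1, 75.3, 22.7 and 21.1 FPKM and did not pass.

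The promoter window of Epor is shown because it holds a GATA box, the binding motif of the GATA factors. It covers 250 bases before to 50 bases after the RefSeq start on GRCm38.p6 (chr9:21963527-21963826, minus strand) and is written 5′ to 3′ along the gene. Capitals mark the motif, AGATAA read on the opposite strand.
Epor: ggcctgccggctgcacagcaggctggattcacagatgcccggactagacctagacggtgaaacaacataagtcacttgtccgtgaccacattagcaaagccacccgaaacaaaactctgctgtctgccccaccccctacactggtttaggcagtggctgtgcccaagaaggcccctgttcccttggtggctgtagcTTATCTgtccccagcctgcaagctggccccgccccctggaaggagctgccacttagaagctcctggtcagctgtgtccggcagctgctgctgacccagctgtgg
AGATAA, searched on both strands, was in 33.3% of the 27 promoter windows of the erythroid list's members, in 9.92% of 252 windows of falling genes, in 14.4% of 167 windows of rising genes, in 7.08% of 5922 windows of members and in 11.2% of all 32851 windows of that length. A match is a description of these letters and not evidence of binding.

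The megakaryocyte, B cell and progenitor lists also had their largest median step between D3 and D5, at -0.73, -0.75 and -0.99 on the log2 scale. Unlike the erythroid list they were already lower at D3 than at D1, by medians of -0.62, -0.43 and -0.49. Neutrophil genes had their falls at other ages. Of 13 megakaryocyte and platelet genes 9 fell, with a median slope of -0.26 per day. All 13 were lower at D3 than at D1, and 12 were lower at D5 than at D3. Of all members 55.5% and 56.8% were lower at these steps. Itga2b, the platelet integrin alpha chain, was at 37.2, 16.6, 8.62 and 8.05 FPKM, a slope of -0.36 ± 0.05 per day (limma adjusted p = 0.0244). Pf4, platelet factor 4, was at 100.4, 51.7, 32.0 and 33.8 FPKM and passed (limma adjusted p = 0.0398), but it also has an entry on a scaffold and its value is uncertain. The list's count was 3 under quantile normalization and 5 under totals without globins.

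Of 20 neutrophil and granule genes 9 fell, with a median slope of -0.22 per day. All 20 were lower at D3 than at D1 and lower at W1 than at D5, whereas 14 were higher at D5 than at D3. The shares of all members for these 3 steps, also counted without regard to bounds, were 55.5%, 52.3% and 43.1%. With bounds apart 19 of the 20 were lower at D3 than at D1 and 19 lower at W1 than at D5. From D3 to D5, 6 were higher with bounds apart and 3 lower. Ctsg, the granule protease cathepsin G, was at 34.9, 20.6, 12.4 and 7.02 FPKM, a slope of -0.36 ± 0.03 per day (limma adjusted p = 0.0129). Its slope was -0.36 per day with any 1 of the libraries left out. Prtn3, proteinase 3, was at 105.2, 49.8, 36.8 and 21.02 FPKM, and Elane, neutrophil elastase, at 83.5, 50.6, 47.6 and 23.1 FPKM, and both fell. S100a8, a calcium-binding protein abundant in neutrophils, was at 1900, 1155, 1164 and 633 FPKM and fell (limma adjusted p = 0.0401), while its partner S100a9, at 2095, 1117, 1205 and 783 FPKM, did not pass. The list's count was 4 under quantile normalization and 4 under totals without globins.

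Lymphoid and progenitor genes were fewer above the limit. Of 6 B cell genes 3 fell, among them Cd79b, a signalling chain of the B cell receptor, at 35.9, 25.2, 11.9 and 9.16 FPKM. Its slope was -0.33 ± 0.04 per day (limma adjusted p = 0.0149). All 6 B cell genes were lower at W1 than at D1 with bounds apart, while 61.6% of all members were lower, counted without regard to bounds. Gfi1b and Myb, transcription factors of blood progenitors, fell from 31.4 to 6.39 FPKM and from 13.2 to 2.21 FPKM, each lower at every later age. Gzma, a granzyme of NK and T cells, was at 30.9, 26.7, 11.5 and 5.70 FPKM with a slope of -0.39 ± 0.05 per day (limma adjusted p = 0.0164). Of 22 Kupffer cell and macrophage genes only Ly6c2 fell, a surface protein of monocytes, at 63.8, 32.3, 27.1 and 15.2 FPKM. The Kupffer lectin Clec4f was at 67.6, 82.5, 94.1 and 79.6 FPKM, in no order. Among 18 sinusoidal endothelial and 15 stellate cell genes limma passed none, while 1 rose and 1 fell of the former and 1 rose of the latter at an unadjusted p under 0.05.

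**Figure D2:**
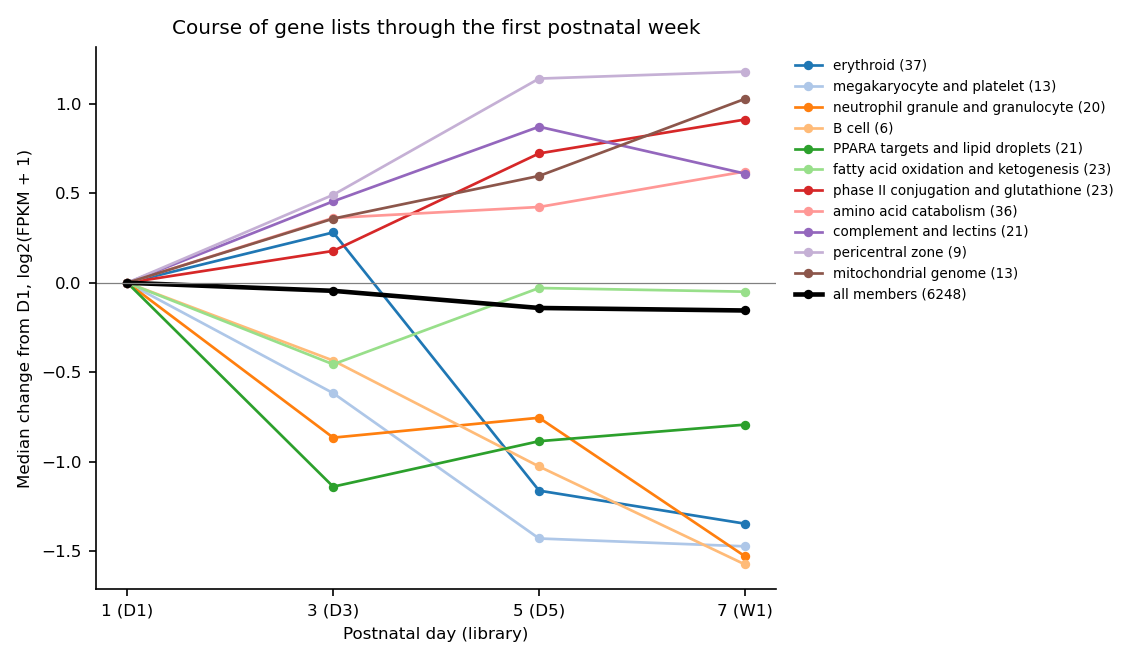
Median change from D1 of each gene list, on the log2(FPKM + 1) scale, against postnatal day, with the number of members in brackets and all 6248 members in black. The erythroid median drops from 0.28 at D3 to -1.16 at D5, and the lists of PPARA targets and fatty acid oxidation have their lowest medians, -1.14 and -0.46, at D3.

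The genes that rose most were transporters and enzymes of hepatocytes. Slc22a7, an organic anion transporter of the hepatocyte membrane (chr17:46432185-46438477 on the build of the tables), was at 0.338, 5.72, 13.2 and 31.3 FPKM. It was higher at each later age, with the steepest rise named here, 0.74 ± 0.07 per day (limma adjusted p = 0.0149), and its slope without D1 was 0.57 per day. Car3, a carbonic anhydrase abundant in adult liver, fat and muscle, was at 14.7, 89.4, 173.6 and 354.6 FPKM, 24.1 times higher at W1 than at D1. Its slope was 0.72 ± 0.08 per day (limma adjusted p = 0.0149). The skeletal muscle marker sum was mostly Mylpf, at 7.21, 6.89, 3.98 and 3.335 FPKM, with Acta1 and Ckm at or below 0.219 and 0.464 FPKM. The part of muscle in the Car3 level was not tested. Much of the rise of several such genes lay between D1 and D3. Without D1 the slopes of Cyp4f14, Ugt3a2, Akr1c20, Ugt2b36, Akr1c6, Car5a, Tdo2, Slc17a4, C9, Sult1c2 and Cldn2 were 0.40, 0.41, 0.27, 0.33, 0.26, 0.30, 0.33, 0.32, 0.33, 0.28 and 0.23 per day, against 0.66, 0.65, 0.62, 0.61, 0.57, 0.55, 0.54, 0.52, 0.51, 0.48 and 0.47 with it.

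In drug and steroid metabolism 4 of 22 cytochrome P450 genes and 7 of 23 conjugation and glutathione genes rose, and none fell. The medians were 0.09 and 0.15 per day, and under the other scalings 4 to 6 and 4 to 10 rose. Cyp4f14, which hydroxylates fatty acid derivatives, was at 0.394, 6.85, 13.1 and 22.9 FPKM (limma adjusted p = 0.0235). Cyp1a2, the caffeine-metabolising P450, was at 30.6, 89.97, 82.7 and 171 FPKM, highest at W1 with D3 and D5 alike (limma adjusted p = 0.0332). Ugt3a2 and Ugt2b36, which attach sugars to small molecules, were at 2.79, 16.7, 51.0 and 53.6 FPKM and at 7.35, 43.4, 84.9 and 109 FPKM. Both passed (limma adjusted p = 0.0235 and 0.0246). Gsta3, a glutathione transferase, was at 240, 241, 491 and 557 FPKM, with its step between D3 and D5 (limma adjusted p = 0.0468). Cyp2c50, of a family of drug-metabolising P450s, had the same step, at 3.92, 4.26, 21.5 and 28.0 FPKM. Glyat, which conjugates acids to glycine, rose at each age, at 7.55, 23.5, 47.5 and 66.6 FPKM (limma adjusted p = 0.0149). For these families, and for Akr1c6, Akr1c20 and Ces1b, the assignment of reads shared between near copies is not given in the sources used here.

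Some genes of amino acid breakdown and of the urea cycle rose. Of 36 catabolic genes 6 rose and none fell, with a median slope of 0.10 per day, and 4 to 11 rose under the other scalings. Tdo2, which opens the tryptophan ring, was at 2.81, 13.02, 30.6 and 34.4 FPKM, with a slope of 0.54 ± 0.08 per day (limma adjusted p = 0.0235). Kynu, Kmo and Haao, later enzymes of the same kynurenine pathway, rose from 15.7 to 41.4, from 15.2 to 41.8 and from 53.3 to 175 FPKM. Otc, the ornithine transcarbamylase of the urea cycle, was at 29.7, 56.3, 91.1 and 113 FPKM, higher at each age (limma adjusted p = 0.02). Car5a, a mitochondrial carbonic anhydrase that supplies bicarbonate, was at 1.79, 12.5, 18.8 and 29.8 FPKM (limma adjusted p = 0.0245). Rhbg, an ammonium transporter, was at 3.23, 16.1, 14.2 and 26.8 FPKM (limma adjusted p = 0.04). The cycle's entry enzyme Cps1 was at 95.7, 146, 115 and 139 FPKM and Ass1 at 457, 710, 553 and 817 FPKM, alternately higher and lower, and neither passed.

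Of 21 genes of bile acid synthesis and transport 4 rose, 3 enzymes and the receptor, and none fell. The median slope was 0.11 per day. Cyp7a1, the rate-limiting enzyme of bile acid synthesis, was at 5.52, 9.18, 11.7 and 29.3 FPKM, with the widest step between D5 and W1. Its slope was 0.35 ± 0.05 per day (limma adjusted p = 0.0231). Cyp8b1, which directs synthesis to cholic acid, was at 77.0, 97.0, 146 and 278 FPKM (limma adjusted p = 0.0236). Nr1h4, the bile acid receptor FXR, was at 20.6, 29.7, 43.6 and 52.7 FPKM (limma adjusted p = 0.0242). Akr1d1, the steroid 5-beta reductase of the pathway, rose from 31.7 to 60.03 FPKM. All 4 were higher at each later age.

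Among secreted proteins some rose steeply and most did not pass. Of 45 plasma protein genes 4 rose and 1 fell, and of 21 complement and lectin genes 3 rose, 1 to 5 under the other scalings. The median slopes were 0.045 and 0.115 per day. Serpina6, the corticosteroid-binding globulin of plasma (chr12:103646632-103657071), was at 7.18, 10.9, 22.7 and 57.8 FPKM, with a slope of 0.48 ± 0.04 per day (limma adjusted p = 0.0129). Ttr, the carrier of thyroid hormone and retinol-binding protein, was at 3982, 10035, 10105 and 13502 FPKM and rose (limma adjusted p = 0.046). C9, of the membrane attack complex, was at 0.427, 3.53, 10.4 and 10.3 FPKM and passed (limma adjusted p = 0.0434). C4bp, the complement inhibitor that binds C4b, was at 3.57, 29.5, 53.7 and 61.8 FPKM, an uncertain value because of a scaffold entry. Trf, the iron carrier transferrin, was at 10798, 12762, 16608 and 15206 FPKM and did not pass.

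The growth hormone and IGF axis had receptors, ligand and binding proteins among its called genes. Of 16 members 5 rose and 1 fell. Ghr, the growth hormone receptor, was at 37.4, 65.6, 99.8 and 101 FPKM (limma adjusted p = 0.0391). Prlr, the prolactin receptor, was at 3.91, 11.8, 23.2 and 22.4 FPKM (limma adjusted p = 0.0316). Igf1, the growth factor that liver secretes in response to growth hormone, was at 12.5, 38.0, 61.0 and 96.2 FPKM. It was higher at each age, with a slope of 0.46 ± 0.05 per day (limma adjusted p = 0.0149). Igfals, which holds IGFs in the circulating complex, was at 15.4, 44.6, 70.0 and 75.2 FPKM (limma adjusted p = 0.0323). Igf2, the fetal growth factor, stayed high, at 1334, 1603, 1779 and 1890 FPKM, and did not pass. Igfbp1, a binding protein that rises in fasting, went the other way, at 2084, 886, 1041 and 485 FPKM (limma adjusted p = 0.0432). Dio1, the deiodinase that activates thyroid hormone, was at 2.60, 12.2, 16.1 and 21.04 FPKM and rose (limma adjusted p = 0.035).

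Genes of the pericentral zone, the hepatocytes around the central vein, had the highest list median, 0.20 per day. Of 9 members 4 rose, and all 9 slopes were above 0, as were 2383 of the 6248 slopes of all members. Lect2, a secreted protein induced by Wnt signalling, was at 72.5, 257, 308 and 417 FPKM (limma adjusted p = 0.0369). Gulo, the last enzyme of vitamin C synthesis, rose from 96.9 to 221 FPKM. Glul, glutamine synthetase of the cells next to the vein, was at 176, 146, 193 and 229 FPKM and did not pass. Notum, a secreted inhibitor of Wnt, was at 1.51, 5.25, 14.0 and 15.1 FPKM, with a slope of 0.47 ± 0.08 per day (limma adjusted p = 0.0259). Cldn2, a tight junction protein, was at 6.36, 26.4, 50.3 and 50.8 FPKM (limma adjusted p = 0.0318). Of 16 periportal genes Etnppl alone rose, from 15.0 to 41.3 FPKM, and 0 rose under quantile normalization and totals without globins and 2 under median ratios. The zones cannot be seen in bulk tissue, and no test of the difference between these lists was made.

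**Figure D3:**
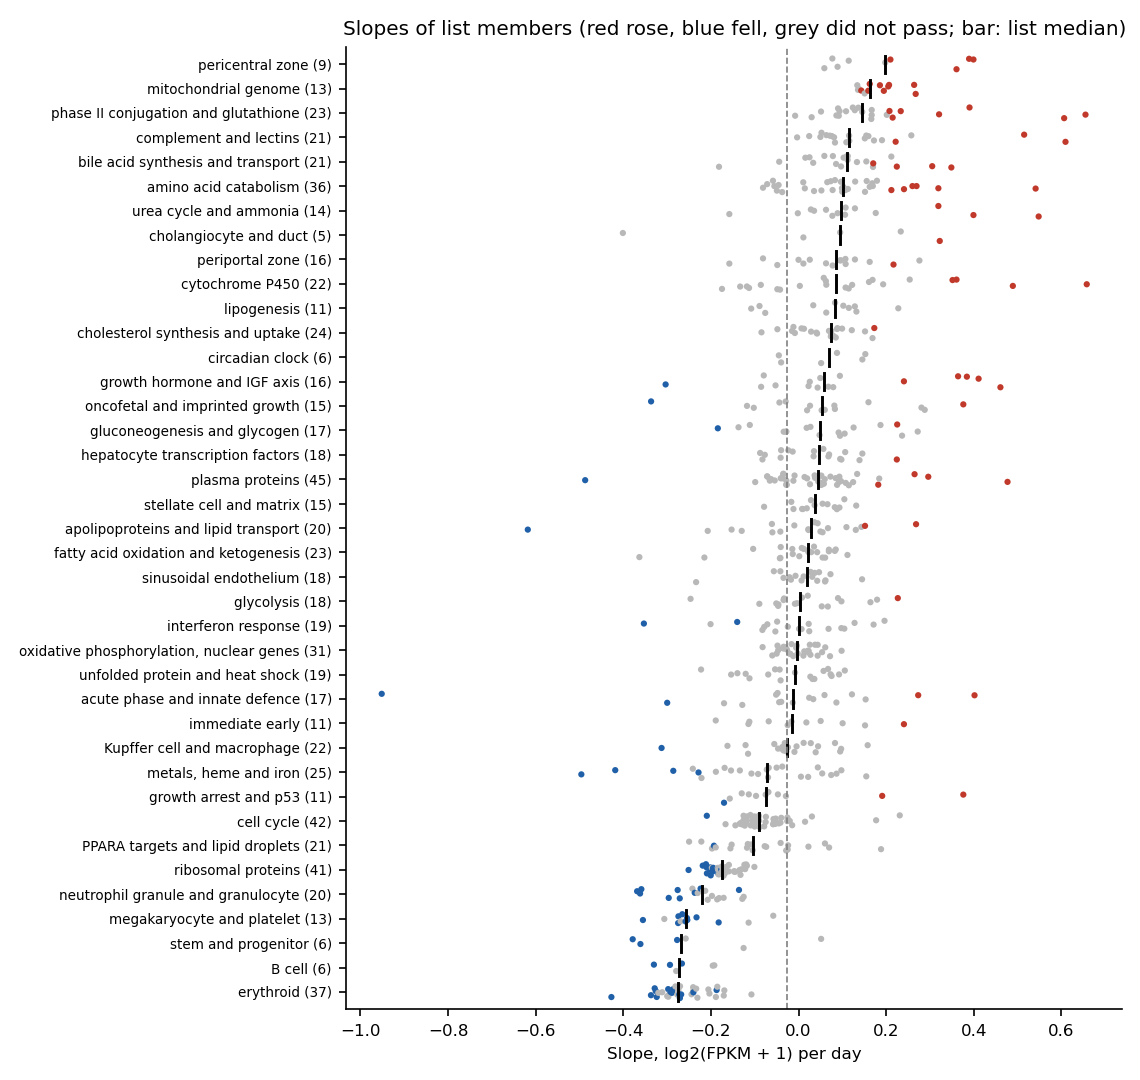
Slope per day of each list member, 1 point per gene, for the lists with at least 5 members, red where the gene rose, blue where it fell and grey where it did not pass, with the list's median as a bar. The erythroid median is -0.27 and the pericentral 0.20, and the dashed line marks the median of all members, -0.03.

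The steepest falls of protein-coding genes were those of secreted proteins and a metallothionein, ahead of any blood cell gene. Hamp encodes hepcidin, the hormone that blocks iron export from gut and macrophages (chr7:30942368-30944017). It was at 2065, 627, 481 and 26.8 FPKM, 77.1 times lower at W1 than at D1. D1 was highest, D3 and D5 lay close together, and W1 stood far below. The slope was -0.95 ± 0.14 per day (limma adjusted p = 0.024), and -0.52 per day without W1 (limma adjusted p = 0.151). The neighbouring copy Hamp2 was at 22.6, 9.65, 10.5 and 4.76 FPKM, also highest at D1 and lowest at W1 (limma adjusted p = 0.0359). Id1, a target of BMP signalling, was at 71.9, 36.4, 36.9 and 24.3 FPKM and fell (limma adjusted p = 0.0393).

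The windows of both hepcidin genes are shown because BMP signalling controls hepcidin through elements of its promoter. They are RefSeq windows on GRCm38.p6, Hamp at chr7:30943980-30944279, minus strand and Hamp2 at chr7:30924132-30924431, minus strand, in each gene's direction. Capitals mark GGCGCC, the core of the BMP response element, searched on both strands, whose letters read the same on either.
Hamp: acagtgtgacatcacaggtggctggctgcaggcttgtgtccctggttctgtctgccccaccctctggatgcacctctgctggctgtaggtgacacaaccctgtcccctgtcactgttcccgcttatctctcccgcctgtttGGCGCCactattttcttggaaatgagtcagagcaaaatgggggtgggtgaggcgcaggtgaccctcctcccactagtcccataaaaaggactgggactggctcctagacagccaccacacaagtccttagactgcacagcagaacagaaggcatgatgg
Hamp2: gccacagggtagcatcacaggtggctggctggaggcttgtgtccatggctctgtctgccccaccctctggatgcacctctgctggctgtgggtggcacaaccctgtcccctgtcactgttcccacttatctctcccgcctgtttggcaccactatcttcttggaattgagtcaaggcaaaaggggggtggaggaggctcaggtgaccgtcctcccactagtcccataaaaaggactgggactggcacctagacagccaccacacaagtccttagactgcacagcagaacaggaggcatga
Aligned, the windows were 91.1% identical, and GGCGCC was found 1 time in Hamp and 0 times in Hamp2. It was in 11.9% of all 32851 windows, in 20.6% of the members' windows, in 16.3% of those of falling genes and in 7.78% of those of rising genes.

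The metallothioneins, small proteins that bind zinc and copper, fell in parallel. Mt1 was at 6649, 3889, 1781 and 1246 FPKM and Mt2 at 3022, 1872, 742 and 415 FPKM, each lower at every later age. Their slopes were -0.42 ± 0.04 and -0.50 ± 0.04 per day (limma adjusted p = 0.0149 and 0.0129). Among 25 genes of metal, heme and iron handling 4 fell, Mt2, Mt1, Alas2 and Id1, and none rose. Of these only Mt1 and Mt2 passed under quantile normalization and totals without globins. Their promoter windows (RefSeq, GRCm38.p6; Mt1 at chr8:94178839-94179138, plus strand, Mt2 at chr8:94172368-94172667, plus strand) are shown with the core of the metal response element in capitals, TGCGCNC or TGCACNC on either strand.
Mt1: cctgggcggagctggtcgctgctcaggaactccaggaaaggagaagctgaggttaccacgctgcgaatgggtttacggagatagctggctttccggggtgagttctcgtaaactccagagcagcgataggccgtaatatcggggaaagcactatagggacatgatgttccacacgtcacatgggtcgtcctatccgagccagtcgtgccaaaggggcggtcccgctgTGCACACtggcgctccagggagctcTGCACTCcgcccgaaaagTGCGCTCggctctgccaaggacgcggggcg
Mt2: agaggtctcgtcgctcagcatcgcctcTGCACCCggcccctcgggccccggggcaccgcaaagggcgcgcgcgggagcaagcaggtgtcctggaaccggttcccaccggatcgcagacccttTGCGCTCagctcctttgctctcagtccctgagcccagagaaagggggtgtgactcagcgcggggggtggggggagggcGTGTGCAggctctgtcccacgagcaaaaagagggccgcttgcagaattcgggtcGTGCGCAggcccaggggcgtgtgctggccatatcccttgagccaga
Mt1 held 3 such cores and Mt2 held 4. At least 1 core was in 25.7% of all 32851 windows and in 34.5% of the members' windows, 32.9% of those of falling genes and 22.8% of those of rising genes, and 0.517% of all windows held 4 or more. The windows of Mt1 and Mt2 were 46.7% identical when aligned.

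Tff3, a trefoil peptide secreted with mucus (chr17:31125306-31129611), was at 881, 204, 67.5 and 36.3 FPKM. Its values fell at each age and its slope was -0.76 ± 0.06 per day (limma adjusted p = 0.0129). The pancreas markers, at their highest at D1, and the sum of gut markers, at 55.6, 34.5, 92.8 and 96.2 FPKM, did not share its order after D3. Nearly all of the gut sum was Fabp2, at 55.3, 34.1, 92.3 and 95.9 FPKM, which is also on the list of PPARA targets. The gut genes Vil1 and Lct were at or below 0.405 and 0.136 FPKM. The part of other tissues in the Tff3 level was not tested. Apoa4, the apolipoprotein that liver and gut add to fat-rich particles, was at 1364, 279, 166 and 92.3 FPKM. D1 stood far above the rest, and the slope of -0.62 ± 0.08 per day (limma adjusted p = 0.0164) was -0.40 per day without D1. Serpina3k, a secreted protease inhibitor of a gene cluster of near copies, was at 180, 60.4, 27.8 and 23.5 FPKM (slope -0.49 ± 0.07 per day, limma adjusted p = 0.02). Slpi, an inhibitor of leukocyte proteases, was at 20.2, 11.7, 6.62 and 3.87 FPKM and fell (limma adjusted p = 0.0149). Rsad2 and Irf7, both induced by interferon, fell from 33.9 to 8.47 FPKM and from 30.2 to 15.9 FPKM, the 2 that fell of 19 interferon genes. Under each other scaling only Rsad2 of the list fell, and under quantile normalization 1 gene of it rose and under median ratios 2. Snora78, a small nucleolar RNA, was at 479 and 501 FPKM at D1 and D3 and is listed at 0 at D5 and W1, and at E18.5, W2, W3 and W8. Asb17os and Zeb2os also fell (limma adjusted p = 0.0369 and 0.035), but whether reads were counted by strand is not stated, so they cannot be told apart from transcripts of the opposite strand.

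Several sets of genes moved within the week without a slope. Of 23 genes of fatty acid oxidation and ketogenesis 22 were lower at D3 than at D1 with bounds apart, by a median of -0.46 on the log2 scale, and all 23 were higher at D5 than at D3 with bounds apart. Among all members 55.5% were lower at D3 and 43.1% higher at D5, counted without regard to bounds. Limma passed none of the 23, and 1 rose and 1 fell at an unadjusted p under 0.05. Ehhadh, of peroxisomal fatty acid oxidation, was at 164, 47.7, 62.7 and 55.0 FPKM. Acot1, an acyl-CoA thioesterase, was at 49.2, 4.405, 8.13 and 6.86 FPKM. For Ehhadh and Acot1 D1 stood alone above the other 3 libraries. The list as a whole was near its D1 level at W1, with a median change of -0.05. At W1, 13 genes were lower than at D1 and 10 higher, and 2 were at least halved with bounds apart.

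Targets of the fatty acid sensor PPARA were also lower at D3 than at D1, 19 of 21 with bounds apart, by a median of -1.14. From D3 to D5, 15 of 21 were higher with bounds apart, by a median of 0.44. Cyp4a10 and Cyp4a14, fatty acid hydroxylases, were at 225, 21.8, 76.0 and 72.5 FPKM and at 804, 194, 248 and 233 FPKM. Fgf21, a hormone of the fasted liver, was at 19.3, 3.30, 6.00 and 9.47 FPKM. Plin2, the coat protein of lipid droplets, was at 490, 228, 258 and 272 FPKM. In all 4 genes D1 was highest and D3 lowest. Only Cd36, a fatty acid transporter, passed the slope test, at 24.9, 18.4, 13.8 and 10.6 FPKM (limma adjusted p = 0.0259). Without D1 the list's median slope was 0.10 per day, against -0.10 with it, and each step rests on 1 library at either end, with no test.

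Cell cycle genes had the opposite course at D3. Of 42 members 38 were higher at D3 than at D1 and 40 lower at D5 than at D3, with median changes of 0.28 and -0.68. Among all members those shares were 44.4% and 56.8%. Rrm2, a subunit of ribonucleotide reductase, was at 72.9, 115, 56.6 and 57.7 FPKM, and Ccnb1, the mitotic cyclin, at 22.5, 31.5, 18.7 and 20.3 FPKM. Both were highest at D3. Only Hmgb2, a chromatin protein of dividing cells, fell, at 294, 228, 130 and 134 FPKM. Under median ratios none of the list fell and 2 rose, and under the remaining scalings limma passed none. The erythroid genes were also high at D3, as given above; their part in the cell cycle genes' course was not tested.

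Ribosomal protein genes all had negative slopes, 41 of 41, with a median of -0.18 per day, and 14 fell. Of all 6248 members 3865 had a negative slope and 2383 a positive one. Under quantile normalization and median ratios 2 ribosomal protein genes fell and under totals without globins 1, and with log2 of the day 28. Rps3 was at 506, 379, 267 and 242 FPKM (limma adjusted p = 0.0472). Transcripts of the mitochondrial genome had positive slopes, 13 of 13, with a median of 0.16 per day, and 9 rose, between 5 and 12 under the other scalings. ND5, a subunit of complex I, was at 985, 1335, 2070 and 2929 FPKM, and CYTB, of complex III, at 4251, 4877, 6463 and 9510 FPKM. Of 31 nuclear genes of oxidative phosphorylation limma passed none, and 1 rose at an unadjusted p under 0.05. Their median slope was 0.00 per day and turned positive under each other scaling. Ribosomal protein transcripts are short, with a median of 1109 bases against 2706 for all members. Over the 5940 members with a transcript in GENCODE M21 (95.1%), Spearman's rho of the slope was 0.05 with transcript length and -0.12 with GC content, a description across genes, which are not replicates.

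Whether the week continued the course of late gestation was asked by the difference between this slope and that over E15.5 to E18.5, in 1 limma fit of 8 libraries. Of 6242 genes with estimates in all 8, the postnatal slope was higher for 332 (5.32%) and lower for 479 (7.67%). Both are calls at a limma adjusted p under 0.05. The fetal libraries differed from those of the week in more than age. Xist was at 12.5 to 35.9 FPKM in the 4 fetal libraries and Ddx3y at or below 0.0433 FPKM in E15.5 to E17.5 and at 1.21 FPKM in E18.5. Globins were 0.145% of FPKM at E16.5 and 9.07% to 26.1% in the other fetal libraries. The parts of these in the differences were not tested. Among the 195 genes that rose in the week the postnatal slope was called higher for 19 and lower for 19. Among the 294 falling genes with this fit it was called higher for 1 and lower for 44. Both sets were picked by the postnatal slope, which enters this difference. The choice therefore shaped these splits, and no conclusion is drawn from them. Without E18.5 the counts were 6 higher and 135 lower, and under quantile normalization 83 and 558.

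Serpina6 fell before birth and rose after D1. It was at 1605, 1039, 556 and 17.6 FPKM from E15.5 to E18.5, a fetal slope of -2.02 per day, before its postnatal rise from 7.18 to 57.8 FPKM, and the difference was 2.50 ± 0.39 per day (limma adjusted p = 0.00579), or 1.24 without E18.5 (limma adjusted p = 0.00411) and 2.40 without W1 (limma adjusted p = 0.0622). Car3 fell from 124 to 17.5 FPKM over the same fetal days and then rose, a difference of 1.53 ± 0.22 (limma adjusted p = 0.00422). Without E18.5 that call was lost, at 1.05 (limma adjusted p = 0.0754). In the other direction Tff3 rose from 82.5 to 878 FPKM before birth and fell afterwards, a difference of -1.86 ± 0.15 (limma adjusted p = 0.000217). Hamp went from 27.7 to 148 FPKM before birth and to 2065 FPKM at D1 before its fall, a difference of -1.90 ± 0.33 (limma adjusted p = 0.0101), not called without E18.5 (limma adjusted p = 0.0576). Igfbp1, too, rose before birth, from 110 to 1218 FPKM, and its difference was -1.47 ± 0.13 (limma adjusted p = 0.000353). Igf1, at 5.13 to 7.11 FPKM in the fetal libraries with a slope of 0.02 per day, then rose, a difference of 0.44 ± 0.12 (limma adjusted p = 0.0438), which passed in 5 of the 15 alternatives.

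**Figure D4:**
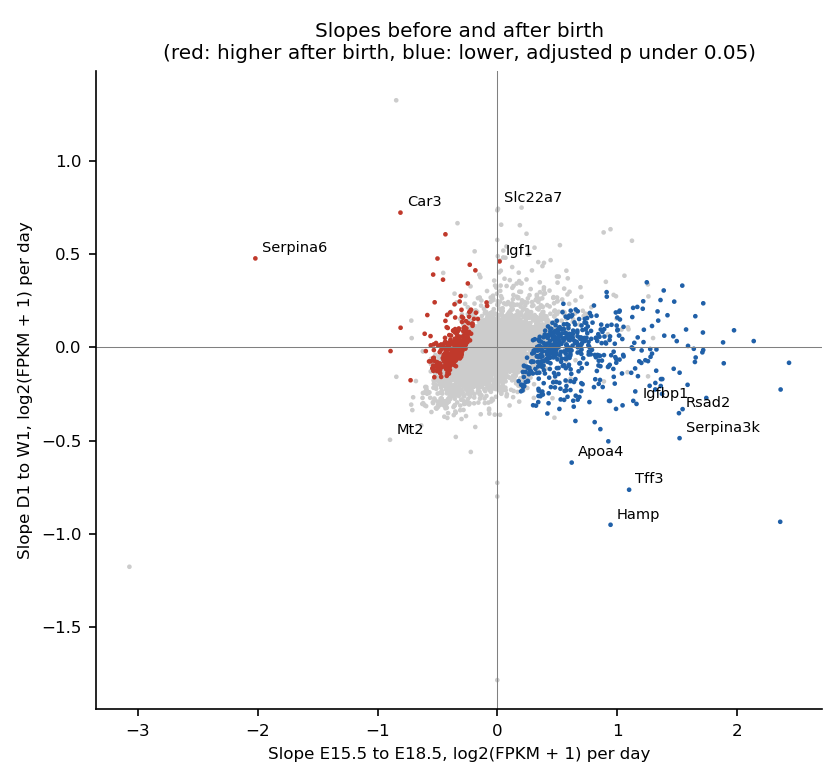
Slope over D1 to W1 against slope over E15.5 to E18.5, both in log2(FPKM + 1) per day, 1 point per gene, red where the postnatal slope was higher and blue where lower at a limma adjusted p under 0.05. Serpina6 and Car3 lie at the upper left, with fetal slopes of -2.02 and -0.81, and Hamp and Tff3 at the lower right.

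Several lists of hepatocyte and leukocyte genes that climbed before birth had lower slopes after it. The counts given here are calls at a limma adjusted p under 0.05 unless said otherwise. Of 44 plasma protein genes fitted 29 had a lower postnatal slope, with a median fetal slope of 0.58 against 0.045 per day in the week. It was lower for 11 of 22 cytochrome P450 genes, 10 of 21 bile acid genes, 12 of 20 neutrophil genes and all 6 B cell genes. Cell cycle genes were the reverse, with 20 of 42 higher and a median fetal slope of -0.48 against -0.09 per day, but 8 were higher under quantile normalization and 6 under median ratios. Without E18.5 the slope was lower for 13 plasma protein, 1 cytochrome P450, 3 bile acid, 12 neutrophil and 4 B cell genes, and 0 cell cycle genes were higher. Of 33 erythroid, 13 megakaryocyte and 41 ribosomal protein genes fitted, limma passed none. At an unadjusted p under 0.05, 1 erythroid gene was higher and 1 lower, and 1 megakaryocyte gene lower. The erythroid median was -0.42 before and -0.27 per day after birth. Cyp7a1 climbed faster before birth, from 0.608 to 17.04 FPKM, fell to 5.52 FPKM at D1 and rose again, a difference of -0.90 ± 0.17 (limma adjusted p = 0.0134), not called without E18.5 (limma adjusted p = 0.249) or without D1 (limma adjusted p = 0.0645).

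The ages outside the week share no library with it. At W2, 176 of the 195 rising genes (90.3%) were higher than at E18.5, against 42.6% of all members. Of the 298 falling genes 291 (97.7%) were lower, against 57.2% of all members. At W8, 161 of the rising genes and 286 of the falling genes still lay on those sides of E18.5, 82.6% and 96.0%, against 29.6% and 70.3% of all members. Of the falling genes 65 were at W2 at least 4 times below their W1 level, among them Gata1 at 0.794 FPKM, Mpo, the granule myeloperoxidase, at 1.21 FPKM and Car1 at 0.289 FPKM. The share of all members at that limit was not computed. Falls were common at this step, with 569 of the 6248 members counted as halved from W1 to W2 and 150 as doubled.

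Some genes turned back after the week. Igfbp1 was the only falling gene above its D1 level at W2, at 3920 FPKM. Apoa4 was at 988 FPKM at W2 and 92.5 FPKM at W3. Hamp stayed at 29.4 FPKM at W2 and was at 7781 FPKM at W3, and Serpina3k was at 10.5 FPKM at W2 and 1789 FPKM at W3. Of the rising genes 11 were under their D1 level at W2, among them Cyp7a1 at 3.83 FPKM and Bhmt, which remethylates homocysteine, at 531 FPKM after 2784 FPKM at W1. The shares of all members above or under their D1 level at W2 were not computed. Car3 was at 16.2 FPKM at W2 and 118 FPKM at W3, against 355 FPKM at W1. Tdo2, by contrast, went on from 34.4 FPKM at W1 to 68.1 FPKM at W2 and 501 FPKM at W3. Each of these ages is again 1 library.

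**Figure D5:**
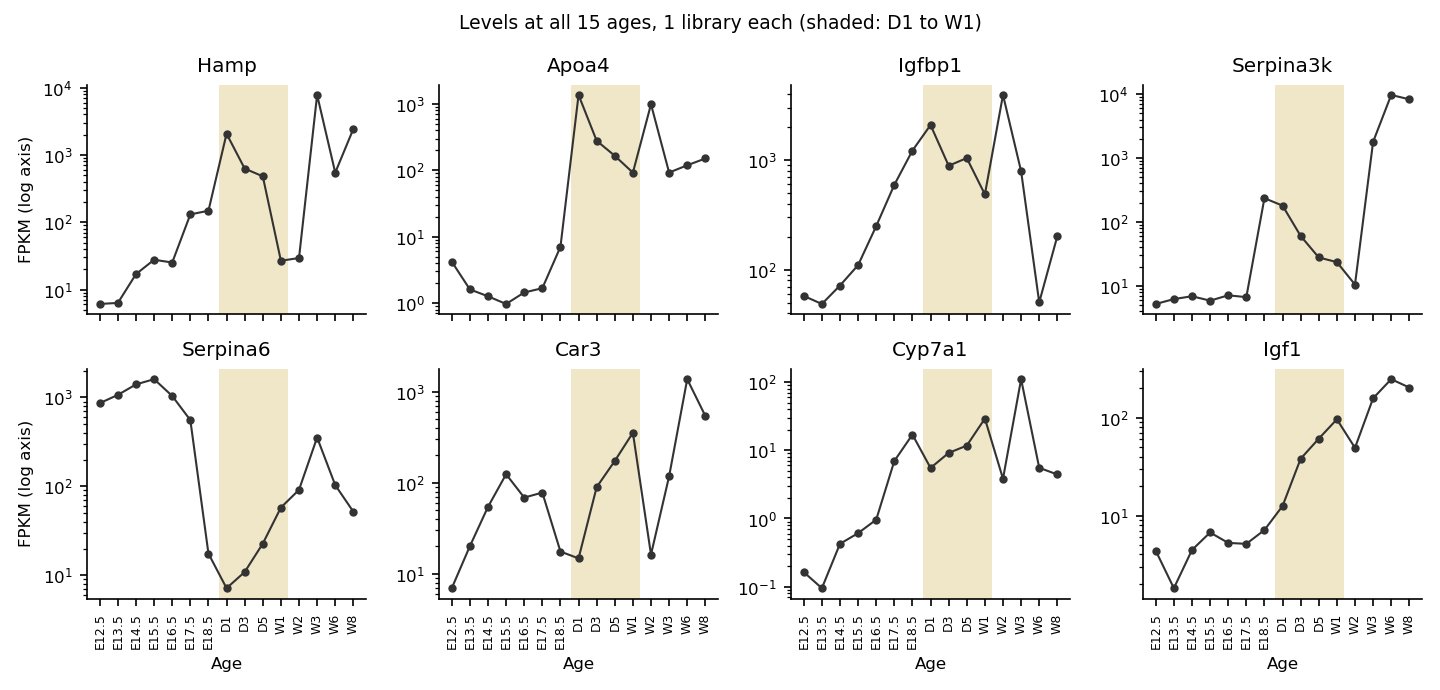
FPKM on a log axis at all 15 ages, 1 library each, for 8 genes, with D1 to W1 shaded. Hamp, Apoa4, Igfbp1 and Serpina3k fall within the shaded week and are higher again at W2 or W3, and Car3 and Cyp7a1 rise within it and are low at W2.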

How the data were processed

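Livers of C57BL/6 mice were flash frozen, RNA was taken with Trizol and libraries were sequenced on an Illumina HiSeq, per the labels' protocols. The authors deposited FPKM per gene with lower and upper bounds and a status mark, per the file headers; the level of the bounds and the program are not given in the sources used here. Bowtie 0.12.2, FastQC and GRCm38.p2 are named in the submitters' processing notes, with no roles. No read counts were used, so depth is unknown beyond the width of those bounds.

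Of 46966 entries, 2484 on scaffolds were left out; 202 genes used also have a scaffold copy and are uncertain. Slopes of log2(FPKM + 1) were fitted with limma 3.58.1 (R 4.3.3, trended prior, 2 residual and 5.17 prior degrees of freedom) over all 6248 genes, two-sided, Benjamini-Hochberg adjusted. A fold on that scale understates the change of low genes; ratios in the text are of FPKM itself. The script was tested on simulated data. The genes used, the 41 gene lists and the tests were chosen with earlier results of these data known. Named genes are the 20 steepest per direction (without predicted genes and scaffold copies), up to 4 per list and direction, each list's most abundant member, other list members as values, and those beside the limit. Alternatives were another pseudocount, 2 other filters on low FPKM, 3 other scalings, a robust prior, log2 of the day and leaving out each library. Positions are those of the deposited tables; promoter sequences are from RefSeq.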

Additional observations from a re-analysis of the deposited data

Results flagged for a closer look

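Among the 40 genes with the steepest slopes of the week, 12 had a slope that differed from that over E15.5 to E18.5 in limma's fit of all 8 libraries. Of all 6242 genes fitted, 5.32% were called higher and 7.67% lower. The 40 were picked by the postnatal slope, which enters this difference. Their larger share was therefore favoured by the choice, and no conclusion is drawn from it. Higher after birth were Serpina6, by 2.50 per day, Car3 by 1.53, Ugt2b36 by 1.04, Pnliprp1, a lipase-related protein, by 0.975 and Igf1 by 0.442, with limma adjusted p from 0.00422 to 0.0438. Pnliprp1 was at 20.04 FPKM at E15.5, 2.37 FPKM at D1 and 18.2 FPKM at W1. Ugt2b36 passed in 6 of its 15 alternatives and differed by 0.41 without E18.5 (limma adjusted p = 0.58), and Pnliprp1 in 12, with 0.68 without E15.5 (limma adjusted p = 0.14). Lower after birth were Serpina3k, by -2.01 per day, Hamp by -1.90, Rsad2 by -1.87, Tff3 by -1.86, Apoa4 by -1.24, Gzma by -1.05 and Slpi by -0.773, with limma adjusted p from 0.000217 to 0.0282. Serpina3k was at 5.87 to 7.12 FPKM in E15.5 to E17.5 and at 235 FPKM in E18.5, and without E18.5 its difference was -0.57 per day (limma adjusted p = 0.287; 0.000706 to 0.287 over its alternatives). Rsad2 likewise was at 2.69 to 15.5 FPKM and then 90.4 FPKM, and without E18.5 differed by -1.29 (limma adjusted p = 0.0706; 0.0002 to 0.0706 over its alternatives). Apoa4 without E18.5 differed by -0.84 (limma adjusted p = 0.116), Car3 by 1.05 (limma adjusted p = 0.0754) and Hamp by -2.05 (limma adjusted p = 0.0576). In all 8 of the 12 lost their call without E18.5, with Igf1, Ugt2b36 and Pnliprp1 among them, and 4 each without D1 and without W1. Igf1 passed in 5 of its alternatives and differed by 0.27 without E15.5 (limma adjusted p = 0.314). Tff3, Gzma and Slpi passed under each of the 15 alternatives, with limma adjusted p of at most 0.00225, 0.023 and 0.0332. The 4 fetal libraries also differ from those of the week in Xist and Ddx3y, as given above; the part of that in these differences was not tested.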

How the results depend on the processing

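The count of rising genes, 195, was 82 among all genes at 1 FPKM in any library, 336 with median ratios and 327 with log2 of the day, and 0 to 519 with 1 library left out. The count of falling genes, 298, was 116 at 1 FPKM, 84 with quantile normalization, 192 with median ratios, 106 with totals without globins, Alb and mitochondrial genes, and 0 to 919 with 1 library left out. All of the 195 rising genes passed again with median ratios, 136 with quantile normalization and 178 with log2 of the day; of the falling genes 191, 84 and 210 did. Slopes higher than before birth, 332, fell to 83 after quantile normalization and to 78 after median ratios and numbered 503 with totals without globins, and 6 to 644 with 1 library left out. Lower slopes, 479, numbered 135 to 538 with 1 library left out and 453 to 558 under the other alternatives. Counts at a pseudocount of 0.1, at a mean of 10 FPKM and with the robust prior were within 1.5 times of those reported. The filter at 1 FPKM took in 13630 genes, and each fit without a library had 1 sample fewer. Counts went up without D3, to 519 rising and 919 falling genes, and without E16.5, to 644 slopes higher than before birth. The cause of these changes was not tested. No called gene changed the sign of its slope in any of the 12 alternatives, all of which share libraries with the fit reported. No paired analysis was possible because each age is 1 library with no replicate number. With 4 libraries and no read counts, slopes near the median of all genes could not be detected, and precision at low FPKM rests on the authors' bounds.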

Other observations

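Few genes of the sugar, cholesterol and lipid transport lists passed. Of 17 genes of gluconeogenesis and glycogen 1 rose and 1 fell, against 2 and 0 under median ratios and none under the remaining scalings. Ugp2, which makes UDP-glucose, was at 33.5, 67.6, 82.3 and 90.5 FPKM (limma adjusted p = 0.0467), and Pck2, the mitochondrial PEP carboxykinase, at 22.5, 20.9, 11.6 and 11.04 FPKM (limma adjusted p = 0.0438). Pck1, its cytosolic counterpart, was at 11.9 FPKM at E18.5 and at 424, 467, 687 and 577 FPKM in the week, and G6pc, which releases glucose, at 64.0 FPKM and then 104, 180, 310 and 261 FPKM; neither slope passed. Sc5d alone rose of 24 cholesterol genes, from 61.1 to 124 FPKM, and 0 to 4 rose under the other scalings. Apoc1, an apolipoprotein of the very low density particles, was at 4944, 7060, 8322 and 9431 FPKM, and Tm6sf2, which helps load them with lipid, at 20.2, 42.5, 54.2 and 66.5 FPKM, the 2 that rose of 20 lipid transport genes. Khk, which phosphorylates fructose, rose from 67.8 to 159 FPKM.

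The best-known fetal transcripts of hepatocytes, Afp and H19, did not pass the slope test. Afp, the fetal serum albumin, was at 8884, 15390, 12868 and 10639 FPKM, highest at D3, and at 2899 FPKM at W2. The imprinted RNA H19 was at 4872, 4973, 5829 and 5891 FPKM and at 3126 FPKM at W2. Of 15 oncofetal and imprinted genes Dlk1, a membrane protein of hepatoblasts, fell, at 38.9, 27.2, 18.5 and 8.51 FPKM (limma adjusted p = 0.0149), an uncertain value because of a scaffold entry. Cdkn1c, an imprinted inhibitor of the cell cycle, rose, at 33.6, 109, 124 and 187 FPKM (limma adjusted p = 0.032), after 159 FPKM at E18.5. The serum amyloid genes Saa3 and Saa4 rose, from 3.92 to 13.2 FPKM and from 5.44 to 34.8 FPKM, whereas Saa1 and Saa2, at 12.7 to 19.1 and 14.4 to 17.8 FPKM, did not pass.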
